A study of Drosophila melanogaster with 36 samples.

Results

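Trimethylation of lysine 9 of histone H3 (H3K9me3), the mark of repressed chromatin, was compared between ovaries with a germline knockdown of piwi and ovaries with a control germline knockdown. The genome was divided into 1 kb bins of the dm3 assembly of Drosophila melanogaster. A bin was kept where the ChIP input was at least 25% of its median over all bins and the mappability index, the share of the bin to which reads can be assigned, was at least 0.5. This left 115199 of 139714 bins. Every library came from ovaries of adult females aged 4 to 6 days. The comparison rests on 4 of the 36 libraries in the series, 2 for each knockdown, made with the same lot of H3K9me3 antibody. The labels give no fly strain, driver or hairpin. The input was made from control knockdown ovaries alone. Because the knockdown was in the germline, the somatic follicle cells that surround the germ cells were not its target, and signal from both cell types was measured together. In such bulk samples, fewer cells carrying the mark and less mark per cell cannot be told apart. The level of piwi RNA in the knockdown was not analysed here.

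Piwi is the nuclear member of the Piwi clade of Argonaute proteins in flies. Guided by small RNAs called piRNAs, it recognises nascent transcripts of transposons and brings about silencing of the locus, which is accompanied by H3K9me3. The piRNAs themselves arise from clusters of transposon remnants. Many germline clusters are transcribed from both strands and are bound by Rhino, a member of the HP1 family that binds H3K9me3. Chromosome 4, pericentromeric regions and the unplaced heterochromatic scaffolds carry broad H3K9me3 in ordinary tissues, whereas the euchromatic arms carry it mainly at scattered sites such as transposon insertions.

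The deposited signal is a read number scaled to the total of its library and corrected for mappability, with an offset of 0.1. A bin was called marked where H3K9me3 exceeded the input by 2-fold or more in the control or in the piwi knockdown, on the log2(signal + 1) scale used for every log2 change given here. Of 11079 marked bins, 659 were called lost, that is, marked in the control and at least 2-fold lower in the knockdown. These were 0.572% of the kept bins. A further 8089 bins (7.02% of the kept bins) were held, with a change of at most 0.5 log2 units in either direction. The 351 gained bins, marked in the knockdown and at least 2-fold higher there, were 0.305% of the kept bins, and 1980 marked bins lay between these classes. Over all kept bins, marked or not, 998 (0.866%) were at least 2-fold lower in the knockdown and 403 (0.35%) at least 2-fold higher. The lost bin nearest to the limit had a log2 change of -1.0001, and the nearest bin outside had -0.9999. The median change over all marked bins was -0.03. Relative to the library totals, the mark thus differed little over the marked bins as a whole and by at least 2-fold in a small set of them. Because each library was scaled to its own total, a change shared by the whole genome cannot be seen in these values.

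The bins that lost and those that gained the mark lay in different chromosomal compartments. On chromosome 4, 237 of 992 marked bins (23.9%) were lost and 1 was gained. In the arms, outside the bins that the authors flagged as heterochromatic, 403 of 5172 marked bins (7.79%) were lost and 30 were gained. In the pericentromeric bins of the large chromosomes, which carry that flag, 8 of 2250 were lost, none was gained and 2034 (90.4%) were held. On the heterochromatic and unplaced scaffolds, 11 of 2665 were lost and 320 (12.0%) were gained.

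**Figure D1:**
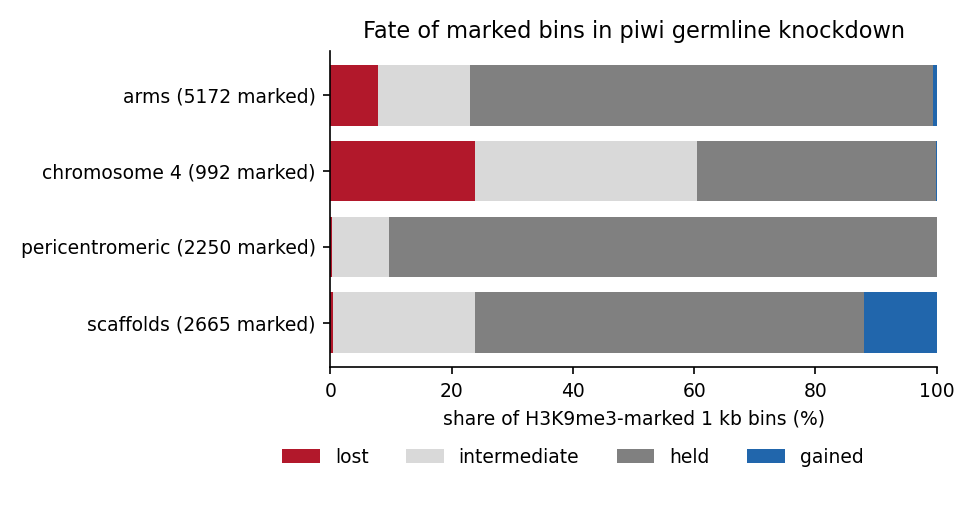
Shares of marked 1 kb bins, in percent, that lost, held or gained H3K9me3 in the piwi knockdown or lay between these classes, by chromosomal compartment. Lost bins make up 23.9% of the marked bins of chromosome 4 and 7.79% of those of the arms, and gained bins make up 12.0% of those of the scaffolds.

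The typical marked bin differed between compartments in the same order. The median log2 change was -0.61 on chromosome 4, where 963 of 992 marked bins lay below 0. It was -0.14 in the arms, 0.03 in pericentromeric bins and 0.30 on scaffolds. In signal, the median marked bin of chromosome 4 had 42.8 in the control and 25.9 in the knockdown, and that of the scaffolds had 29.6 and 40.6. Chromosome 4 was therefore lower along most of its length, while in the arms most marked bins stayed near the control and a tail of bins was far lower.

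**Figure D2:**
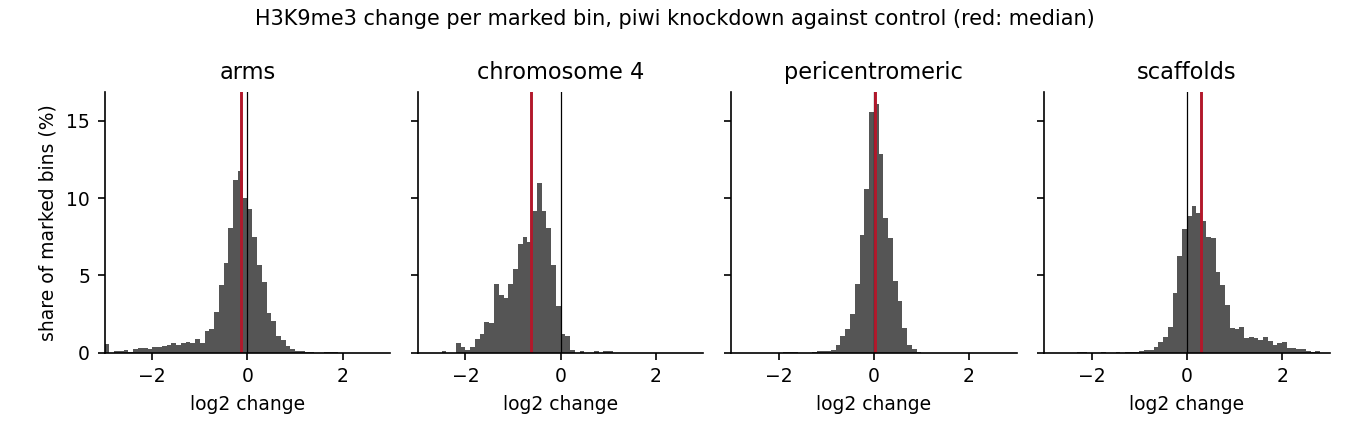
Distribution of the log2 change in H3K9me3 signal per marked bin, piwi knockdown against control, in steps of 0.1, with changes beyond the axis counted in the outermost bars. Red lines mark the medians of -0.14 in the arms, -0.61 on chromosome 4, 0.03 in pericentromeric bins and 0.30 on scaffolds, and the arms have a long tail toward loss.

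The deposited H3K9me3 values are averages of 2 libraries and hold no spread. Because each library had been scaled by its own total before averaging, the pair of read counts behind an average could be recovered in bins of up to 30 scaled reads (signal times mappability index). The recovered totals were 10820000 and 10790000 reads for the control and 13290000 and 12810000 for the knockdown, so that 1 read was worth 0.0752 to 0.0927 signal units. A single pair of counts fitted in 100% of bins of up to 10 scaled reads. Between 20 and 30 it fitted in 99.9% of control and 89.2% of knockdown bins, but also in 69.4% and 71.1% of values shifted at random by up to 2%, so single libraries are less certain there. In all, 109176 bins (94.8%) were resolved, among them 222 of the 659 lost, 46 of the 351 gained and 4064 of the 8089 held bins. The recovered libraries carry no replicate number, and they are called the larger and the smaller library of their group by total.

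In the 210 resolved lost bins of the arms, the median signal was 28.5 in the larger and 18.9 in the smaller control library. It was 7.30 and 8.14 in the larger and smaller knockdown libraries, which lie lower by the choice of these bins. Unmarked arm bins had medians of 3.98, 5.13, 3.79 and 5.64 in the same order, so these lost bins came close to the background without reaching it. Held arm bins had medians of 21.4 and 16.96 in the control and 22.3 and 15.01 in the knockdown. The larger library of each group had the higher signal in held arm bins and the lower signal in unmarked ones, so libraries of the same group differed in enrichment. In held pericentromeric bins the control order was the reverse, at 20.8 in the larger and 26.98 in the smaller library.

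**Figure D3:**
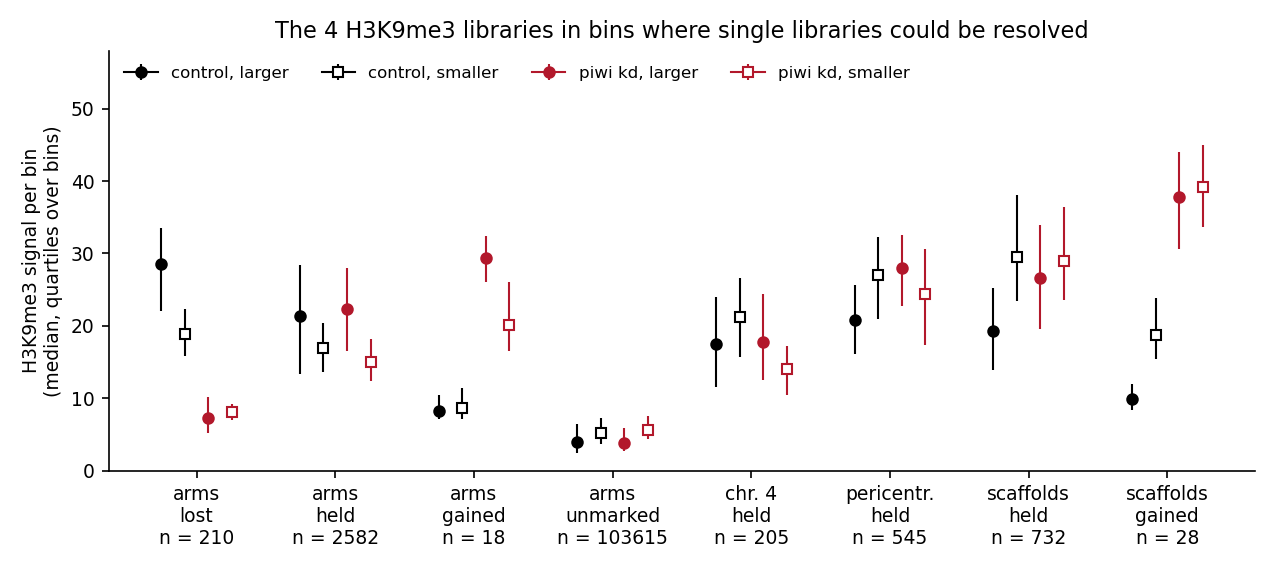
H3K9me3 signal per bin in the 2 control and 2 piwi knockdown libraries, over bins where single libraries could be resolved; symbols are medians and lines span the quartiles over bins. In lost arm bins both knockdown medians (7.30 and 8.14) lie below both control medians (28.5 and 18.9), which follows from the choice of these bins. On the scaffolds the larger control library lies below the other 3.

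Both knockdown libraries lay below both control libraries in 8187 resolved bins, which was 7.5% of those resolved, and above them in 11120 (10.2%). Among resolved lost bins the count was 219 of 222, which follows from the rule that chose them. Marked bins of chromosome 4, chosen by position, had both knockdown libraries below in 185 of 332 (55.7%) and above in 0. In pericentromeric bins the counts were 25 of 609 below and 119 above. On scaffolds they were 19 of 1090 below and 409 (37.5%) above. Chromosome 4 was thus set apart from the other heterochromatic compartments in single libraries as well, and its unmarked bins lay below in 44 of 94.

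When resolved bins were called lost from the larger control and larger knockdown library alone, the smaller pair, which took no part in the call, could be read independently. Of 404 bins called in this way, 384 (95.0%) lay below 0 in the smaller pair, with a median log2 change of -0.83. Held bins called the same way had a median of -0.14 there, with 69.4% of them below 0. Of 192 bins called lost in the smaller pair, 179 (93.2%) lay below 0 in the larger pair, with a median of -0.92, against 15.7% and 0.37 for held bins. Among resolved bins, a loss called in 1 pair of libraries was therefore found again in the other, though smaller. Only 34.9% and 46.4% of the bins reached 2-fold a second time. Of the 237 lost bins of chromosome 4 only 7 were resolved, so most of its loss could not be read in this way. Of 333 bins called gained in the larger pair, 271 lay above 0 in the smaller pair with a median of 0.34, against 30.6% of held bins, and 25 (7.51%) reached 2-fold. All 21 bins called gained in the smaller pair lay above 0 in the larger pair, as did 84.4% of held bins.

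limma on log2(signal + 1) over all resolved bins called 180 bins lower (0.165% of those tested) and 13 higher (0.0119%) at a Benjamini-Hochberg adjusted p under 0.05, with 1202 and 437 at an unadjusted p under 0.05. The lower bins included 104 of the 222 resolved lost bins and 76 unmarked bins, and the higher bins included 9 of the 46 resolved gained bins. Lost and gained bins were chosen by their change in these same libraries, so this overlap is no separate support for the classes. The counts rest on single libraries. Without the larger knockdown library 4 bins were lower and 0 higher, without the larger control library 11 and 0, without the smaller knockdown library 54 and 1, and without the smaller control library 265 and 29. After quantile normalisation of the 4 libraries they were 52 and 1. Nothing in the labels says whether the 2 libraries of a group came from separate flies, so these p-values may measure technical spread.

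In the arms, lost bins formed short domains. Joining lost bins across gaps of up to 3 kb gave 49 domains of at least 3 lost bins, which held 289 of the 403 lost arm bins (71.7%). Their span was 3 to 20 kb with a median of 5 kb, and the mean control signal was 2.17 to 10.1 times that of the knockdown. The domain on 3R from 27620001 to 27631000, with 11 lost bins that all overlap exons, had a mean signal of 53.1 in the control, 5.24 in the piwi knockdown and 25.7 in the rhino knockdown. On 2L from 18527001 to 18545000, all 18 bins were lost, 17 of them exonic. Its mean was 29.6 in the control and 4.38 in the knockdown. Single libraries were resolved in 12 of these bins, with means of 29.9 and 19.0 in the control and 3.64 and 5.25 in the knockdown. In all 12 the knockdown libraries were the lower ones, an order that follows from the choice of these bins as lost. These domains thus came down to the level of unmarked arm bins, for which the medians were 4.60 in the control and 4.78 in the knockdown.

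Further arm domains had larger total differences or deep losses. On 2R from 12097001 to 12110000, 13 bins had a mean of 65.3 in the control and 14.2 in the knockdown, with the strongest nascent RNA of the named domains, at a mean GRO-seq signal of 215. On 2L from 19154001 to 19170000, 15 lost bins had means of 49.1 and 11.8. On 3L a domain from 14045001 to 14052000 had 70.9 and 9.06, and one from 14012001 to 14018000 had 42.9 and 5.21. The others among the 10 with the largest summed difference were on 3L from 36001 to 56000 (28.3 and 8.19), 3R from 26001 to 32000 (56.3 and 13.3), 2L from 16720001 to 16728000 (38.2 and 9.23) and X from 6001 to 9000. The last lies near the left end of the assembled X and stood apart from the rest. Its mean was 322 in the control and 135 in the piwi knockdown, and its control small RNA signal was 4650 and its control Rhino signal 945. Its input was also high, at 77.3 against 7.92 to 11.96 in the other 9 arm domains, so these signals cannot be compared with those of the other domains without it.

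**Figure D4:**
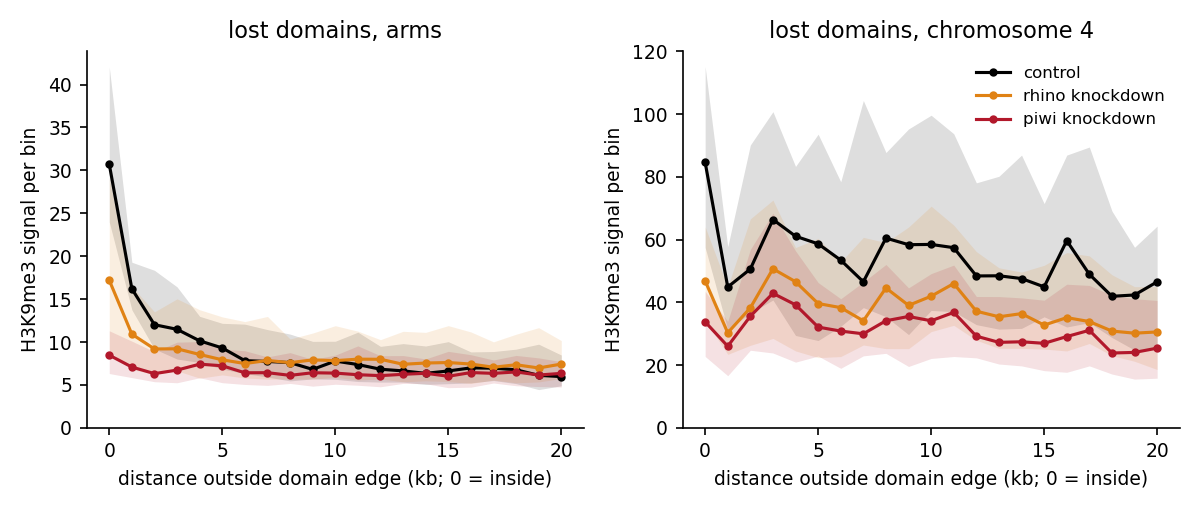
Median H3K9me3 signal per bin (lines) and quartiles over bins (bands) inside lost domains, at 0 kb, and by distance in kb outside their edges, for control, rhino knockdown and piwi knockdown. In the arms the control falls from 30.7 inside to 9.3 at 5 kb outside while the piwi knockdown stays between 6 and 9 throughout, and on chromosome 4 the piwi knockdown stays below the control over the whole range.

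The lost arm domains were islands in unmarked chromatin with a shoulder of weaker signal. The control median fell from 30.7 inside the domains to 16.2 at 1 kb, 12.0 at 2 kb and 7.8 at 10 kb outside the edge. The piwi knockdown had 8.47 inside, 7.1 at 1 kb and 6.4 at 10 kb. The shoulder was thus also lower in the knockdown, and beyond about 10 kb the medians of the groups were close together.

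On chromosome 4 the domains were longer and kept more of the mark. Its 25 domains had a median span of 8 kb, the longest being 37 kb, and held 218 of the 237 lost bins. The median domain had a mean signal of 84.5 in the control and 34.7 in the knockdown, which is well above the median of 8.81 that the lost arm domains had in the knockdown. The domain from 891001 to 928000, with 30 lost bins, had means of 77.1 and 26.8. From 871001 to 887000 they were 148 and 34.8, from 934001 to 949000 they were 125 and 37.2, from 970001 to 993000 they were 101 and 37.7, and from 352001 to 378000 they were 71.7 and 29.3. Loss was thus concentrated along the chromosome. Between 800001 and 1000000, 83 of 172 marked bins (48.3%) were lost, and between 200001 and 400000, 54 of 149 (36.2%), whereas the other steps of 200 kb had 11.3% to 21.4%.

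Few of the chromosome 4 lost bins could be resolved into libraries (7 of 237), because their control signal is high. Over the 332 resolved marked bins, the median log2 change was -0.13, -0.51, -0.37 and -0.67 in the 4 pairings of a knockdown with a control library, all below 0. The input came from the control knockdown alone, and the part of DNA content in the lower signal of chromosome 4 was not tested.

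Transcription in the control was higher in lost than in held bins. Nascent RNA measured by nuclear run-on (GRO-seq) had a median of 6.89 in lost and 2.36 in held arm bins, and of 13.9 and 1.81 on chromosome 4. RNA polymerase II ChIP had 6.84 and 4.51 in the arms and 11.2 and 4.79 on chromosome 4. The 2 control RNA-seq libraries had 0.83 and 1.31 in lost against 0.17 and 0.31 in held arm bins. On chromosome 4 they had 12.5 and 12.0 against 0.31 and 0.36. Unmarked arm bins had a median nascent RNA of 0.95. The nascent RNA and the RNA polymerase II signal each come from 1 control library.

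**Figure D5:**
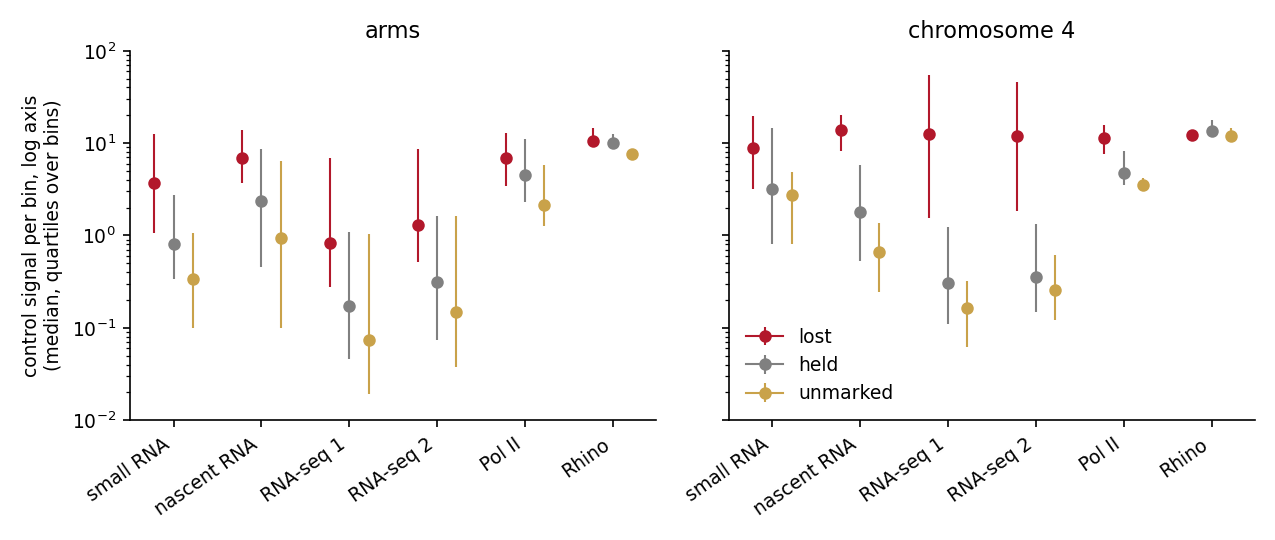
Control signal per bin, on a log axis, of small RNA, nascent RNA, the 2 RNA-seq libraries, RNA polymerase II ChIP and Rhino ChIP in lost, held and unmarked bins of the arms and of chromosome 4; points are medians and lines span the quartiles over bins. Nascent RNA medians are 6.89 in lost and 2.36 in held arm bins and 13.9 and 1.81 on chromosome 4, while the Rhino medians of the classes lie close together.

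At matched control levels of the mark, the share lost differed with nascent RNA in strongly marked bins and lay close together in weakly marked ones. Among arm bins with a control signal under 20, 13 of 515 (2.52%) with a nascent RNA signal of at least 5 were lost, against 27 of 1223 (2.21%) with less, and on chromosome 4 no such bin was lost. Bins marked in the knockdown alone are counted here but cannot be called lost. The shares under 20 therefore cannot show whether loss varies with nascent RNA there. Among arm bins with a control H3K9me3 signal of 20 to 40, 164 of 1060 (15.5%) with a nascent RNA signal of at least 5 were lost, against 92 of 1503 (6.12%) with less. The arm shares were 17.7% and 6.25% at a control signal of 40 to 80, and 15.7% and 1.85% above that. On chromosome 4, among bins with a control signal of at least 80, 121 of 173 (69.9%) with nascent RNA of at least 5 were lost, against 4 of 43 (9.30%) with less. In bins with a control signal of 20 to 40 the shares on chromosome 4 were 7 of 84 (8.33%) and 14 of 232 (6.03%), so the shares lay closer together in these more weakly marked bins. Bins are neighbours and share the same libraries, so these shares are descriptions without a test.

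The share lost differed with exon overlap, and that difference varied with nascent RNA. On chromosome 4, 181 of 636 marked bins with an exon (28.5%) and 56 of 356 without (15.7%) were lost. Within bins of nascent RNA of at least 5, the shares were 43.1% with an exon and 41.6% without, and within bins of less nascent RNA they were 9.68% and 3.70%. In the arms they were 8.22% with and 7.37% without an exon, with 10.8% and 15.8% within bins of nascent RNA of at least 5 and 5.63% and 3.74% within bins of less.

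Small RNA was more abundant in lost than in held bins. The control median, from 1 library, was 3.69 in lost and 0.82 in held arm bins, and 8.93 and 3.21 on chromosome 4. A small RNA signal of at least 10 was found in 114 of 403 lost arm bins (28.3%), in 453 of 3952 held ones (11.5%) and in 3.16% of all kept arm bins. The share of marked arm bins that were lost was 3.45% at a signal under 1, 10.6% between 1 and 10, 17.1% between 10 and 100, and 12.0% in the 158 bins above 100. Of the 49 lost arm domains, 19 had a mean small RNA signal of at least 10 and 7 had less than 1. A bin counts small RNA from its own sequence, so small RNA made elsewhere from a copy of the same element is seen only where reads were assigned to that bin.

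Small RNA bound by Piwi in the piwi germline knockdown, which the labels describe as somatic, was at or above 1 in 104 of 403 lost arm bins (25.8%) against 526 of 3952 held ones (13.3%). On chromosome 4 the counts were 135 of 237 (57.0%) and 54 of 392 (13.8%). Over all kept bins the shares were 9.49% in the arms and 26.6% on chromosome 4. This library comes from the cells that the knockdown did not target, and its median of 1.41 in lost bins of chromosome 4 lay beside a median RNA-seq signal of 12.5 there. Whether these fragments are piRNAs or pieces of transcripts was not tested.

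The relation of loss to control Rhino differed between compartments and measures. In the arms, Rhino over input had a median log2 value of 0.15 in lost and 0.35 in held bins. Rhino-bound bins, with Rhino 4-fold or more above the input, made up 15 of 403 lost (3.72%) and 150 of 3952 held arm bins (3.796%), and 0.23% of all kept arm bins. By the authors' own flag for Rhino peaks the arm counts were 41 lost (10.2%) and 264 held bins (6.68%), against 0.595% of all kept arm bins. On scaffolds 7 of 11 lost and 240 of 1711 held bins (14.0%) were Rhino-bound, against 18.4% of all kept scaffold bins. Of these 11 lost bins, 3 formed 1 domain on U. On chromosome 4 the share lost was 58.3% of 36 marked bins with Rhino under input, 32.2%, 17.2%, and 5.77% of the 104 bins at least 4-fold over input as Rhino increased, while the median control H3K9me3 in these steps was 74.1, 53.4, 39.1 and 31.3. In the 15 Rhino-bound lost arm bins, Rhino itself had a median of 46.3 in the control and 12.7 in the piwi knockdown. The 150 Rhino-bound held arm bins had 56.9 and 26.8, so Rhino was lower there too while the mark stayed at 31.5 and 31.1. The 36 Rhino-bound unmarked arm bins had 66.9 and 13.9. All these bins were chosen by their control Rhino signal, so part of the lower Rhino value can follow from that choice.

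The kept bins of the listed piRNA clusters included few lost ones, all of them in the cluster on chromosome 4. In 42AB, a major dual-strand germline cluster (2R, 2144001 to 2387000), 38 of 243 bins were kept, 28 of them held and none lost, and the mean H3K9me3 signal was 62.5 in the control and 48.5 in the piwi knockdown. In 80F (3L, 23273001 to 23315000), 32 of 35 kept bins were held, with means of 70.7 and 58.7. In the cluster at the distal end of chromosome 4 (1258001 to 1349000), 20 of 91 bins were kept. Of these, 4 were lost and 1 was gained, with means of 72.8 and 45.3 over the kept bins. A lost domain of 3 lost bins lay inside this cluster, from 1284001 to 1292000, with means of 287 and 111. Its mean input was also high, at 64.2 against a median of 6.20 in marked bins of chromosome 4. The mean Rhino signal of this domain was 908 in the control and 225 in the piwi knockdown. The median log2 change of Rhino in the piwi knockdown was -1.16 in 42AB, -0.59 in 80F and -0.01 in the distal cluster.

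The 2 clusters at 38C went the other way. The mean was 34.5 in the control and 39.9 in the knockdown at 38C2 (2L, 20104001 to 20117000), where 7 of 9 kept bins were held. At 38C1 (2L, 20148001 to 20228000), where 17 of 80 bins were kept, it was 17.9 and 27.2, with 2 of the 17 gained. The median log2 change of Rhino in the piwi knockdown was 2.09 at 38C2 and 0.30 at 38C1. At flamenco (X, 21503001 to 21685000), the somatic cluster transcribed from 1 strand, 16 of 182 bins were kept. Of these, 12 were held and 2 gained. The means were 33.9 and 39.5, and the median log2 change was 0.0012. At 20A (X, 21392001 to 21432000), which is also transcribed from 1 strand, 7 of 40 bins were kept. Of these, 5 were unmarked and none was lost. Of the chromosome ends, that of 2R (21136001 to 21147000) had 2 of 10 bins lost and means of 25.6 and 16.5, and that of 2L (1 to 10000) had 45.2 and 32.8 over 5 kept bins, none of them lost. No bin of the listed 3R end was kept, so it has no value.

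The H3K9me3 ChIP of the rhino knockdown shares its control libraries with the comparison above, and its values are set beside it for that reason only. In lost arm bins the median signal was 30.1 in the control, 16.9 in the rhino knockdown and 8.83 in the piwi knockdown. In lost bins of chromosome 4 it was 86.2, 46.9 and 33.3. The named domains fell into different patterns. On 2R from 12097001 to 12110000 the means were 65.3, 46.9 and 14.2, and at the X end from 6001 to 9000 they were 322, 320 and 135. On 2L from 18527001 to 18545000 they were 29.6, 5.06 and 4.38, so that both knockdowns were low. Of the 49 lost arm domains, 27 were at least 2-fold lower than the control in the rhino knockdown by their means and 12 were less than 1.2-fold lower. The single libraries of the rhino knockdown were not analysed here, and the difference between the knockdowns was not tested.

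Gained bins were nearly all on the scaffolds, with 122 on 2RHet, 90 on U, 83 on 3RHet and 25 on 3LHet. Their median signal was 19.4 in the control and 61.5 in the piwi knockdown, and their median in the rhino knockdown was 31.7. They had little input (a median of 2.91 against 5.63 in held scaffold bins) and little nascent RNA (0.31 against 1.04). Few overlapped exons (5 of 320, against 9.20% of all kept scaffold bins). A small RNA signal of at least 10 was found in 252 of 320, against 1068 of 1711 held scaffold bins and 65.9% of all kept scaffold bins. Rhino-bound bins were 89 of the 320 gained and 240 of the 1711 held scaffold bins, and 18.4% of all kept scaffold bins. The 2 gained domains with the largest summed difference were chosen after their values were seen. On 2RHet from 1862001 to 1894000, 18 gained bins had means of 16.6 in the control and 68.7 in the knockdown, and on U from 201001 to 222000, 16 gained bins had 25.0 and 82.8.

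The scaffold gain depended on the larger control library and on the filters. In the 1090 resolved marked scaffold bins the median log2 change was 0.59 and 0.81 against the larger control library and -0.03 and 0.15 against the smaller one. In the 28 resolved gained scaffold bins the medians were 9.88 and 18.7 in the larger and smaller control library and 37.9 and 39.2 in the knockdown libraries, where the order of the groups follows from the choice of these bins. With input of at least 50% of its median, 73 bins over the whole genome were gained in place of 351, and with no mappability filter 1119. The direction of the median over resolved arm bins was not stable between libraries either. Over the 3229 resolved of 5172 marked arm bins, the 4 pairings gave 0.06, 0.25, -0.45 and -0.20. Bins of high signal could not be resolved, so the stability of the median over all marked arm bins was not tested. In the averaged values, the median change of marked arm bins was 0.09 at a control signal under 20. It was -0.20 at 20 to 40, -0.31 at 40 to 80 and -0.42 above that.

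In the arms, 30 bins were gained. They formed 1 domain, on X from 967001 to 972000, where 4 gained bins all overlapped exons, and the other bins lay outside any domain. The mean was 10.2 in the control, 26.3 in the piwi knockdown and 11.6 in the rhino knockdown. In the 3 resolved bins the library means were 9.74 and 8.10 in the control and 30.0 and 19.4 in the knockdown, an order that follows from the choice of these bins as gained. Its small RNA signal was 0.1, the offset of the scale, in both the control and the rhino knockdown, and its control nascent RNA signal was 14.5.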

How the data were processed

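The authors deposited a table of 1 kb bins on dm3 with a normalised signal per bin and library or average. Per the submitters' processing notes, the tools were Bowtie 0.12.7, bedtools 2.16.1, cutadapt 1.0, SAMtools 0.1.16 and GSNAP, with no statement of which made which column. The deposited mappability index is a fraction from 0 to 1, and peak, cluster and heterochromatin flags are the authors' own. That the signal is reads scaled to a library total, corrected by the mappability index and offset by 0.1 (0.01 for RNA-seq), was read from the values, since the labels do not define it. The H3K9me3, Rhino and input columns are averages of 2 libraries. The small RNA, GRO-seq and RNA polymerase II columns used here are 1 library each. A column of genomic DNA reads (1 column) was not used.

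Bins, lists, regions and domains were chosen with earlier results of these data known. Classes used log2(signal + 1). Named domains are the 10 lost domains in the arms and the 5 elsewhere with the largest summed difference, and the gained arm domain. Classes are described by counts and medians, since neighbouring bins are not replicates. Recovery of single libraries, with its limit of 30 scaled reads, and limma 3.58.1 (R 4.3.3) on the recovered libraries were added after seeing the data. Above 10 scaled reads a pair was accepted only where the larger library held a share of 0.25 to 0.85 and a single pair fitted. The recovery was checked on simulated libraries, where every resolved pair was correct. These were built with the same totals and rounding that the recovery assumes, so the check does not test those assumptions. In simulated bins of the same comparison limma called 100% of 50 with a 4-fold loss, 54% of 50 with a 2-fold loss and 0.00457% of unchanged ones. The simulated libraries of a group shared the same expected signal, whereas the real libraries of a group differed in enrichment. The simulated rates and the share of correct pairs may therefore not hold for the real libraries.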

Additional observations from a re-analysis of the deposited data

How the results depend on the processing

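No paired analysis was possible because the recovered libraries carry no replicate number. Of 134 values recomputed under other settings, 34 moved. A count was called moved past a 1.5-fold difference, and a median past the standard deviation between the 4 library pairings. That limit was 0.31 in the arms and 0.39 on scaffolds, larger than the medians there, so for these medians the label says little. With a pseudocount of 5, 254 arm bins were lost. Without an input filter 571 bins were gained, and with input of at least 50% of its median 73 bins and 5 domains. Without a mappability filter 12626 bins were held and 1119 bins and 84 domains gained, and at an index of at least 0.8, 186 bins and 26 domains were gained. The share of lost among lost and gained bins was 65.2%, and 89.3% and 44.8% under the stricter input filter and without the mappability filter. With a mark of 4-fold over input, 336 bins (99 in the arms) and 35 domains were lost and 4298 bins held. At a change of 4-fold, 123 bins (109 in the arms, 11 on chromosome 4) and 15 domains were lost and 56 bins and 9 domains gained. At 1.5-fold, 1361 bins (747 in the arms, 523 on chromosome 4) and 119 domains were lost and 972 bins and 115 domains gained. limma called 52 bins lower and 1 higher after quantile normalisation, and 4 to 265 lower and 0 to 29 higher when a library was left out. The median over all marked bins turned positive without an input filter (0.0041), without a mappability filter (0.059) and at 4-fold over input (0.035), and the pericentromeric median turned negative (-0.0087) at equal arm medians, all within the spread between libraries. The medians of the arms, chromosome 4 and the scaffolds kept their sign under these settings. Most lost bins have too high a signal to be resolved into libraries, so their spread is not known.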
